A study of Mus musculus with 30 samples.

Results

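Dppa2, Dppa4, Dppa3 and Dppa5a are the developmental pluripotency associated genes examined here. They were taken by symbol from the table of read counts per gene, which gave 4 of its 25400 genes, and all 4 passed the filter on low counts with 16582 genes in all. Their levels were followed in 24 RNA-seq libraries of mouse embryonic stem cells (ESCs) taken to day 8 of neuronal differentiation, the stage that the labels call neural progenitor cells (NPCs).

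The name of the family refers to when these genes are active and not to a shared protein fold. Dppa2 and Dppa4 encode small nuclear proteins with a SAP domain, a DNA-binding motif. They act as a pair, sit at developmental gene promoters in pluripotent cells and are needed there for the genes of the 2-cell-like state, in which ESCs transiently express transcripts of the early cleavage embryo. Dppa3, also called Stella or PGC7, is a maternal factor of the oocyte and a germ cell marker that limits DNA methylation by binding UHRF1. Dppa5a, also called Esg1, encodes an RNA-binding protein with a KH domain. All are expressed in the early embryo, the germ line and naive ESCs and are normally silenced when ESCs leave pluripotency.

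The study asked which parts of MBD2 and MBD3, alternative subunits of the nucleosome remodelling and deacetylation (NuRD) complex, are needed for that differentiation. There were 8 lines with 3 libraries each, all derived from the HA36CB1 ESC line. The study describes that line as carrying a site for cassette exchange and the biotin ligase BirA. Wild type (WT) cells had no edit of Mbd3 and no MBD construct. The Mbd3 KO carried a CRISPR-Cas9 deletion in Mbd3 made with guides to exons 2 and 3, and all 6 remaining lines carried that knockout plus a biotin-tagged construct placed at a fixed genomic site under the CAG promoter. The constructs were full-length MBD3a, MBD3ΔMBD (MBD3a without its methyl-CpG binding domain), full-length MBD2a, MBD2aΔGR (without the N-terminal glycine-arginine repeat), MBD2aR181C (a point mutation in the methyl-CpG binding domain) and MBD2t (an isoform without the C-terminal coiled coil). The labels write that mutation as R181C and the column headers as R64C, and the columns were assigned to that line because it is the only MBD2a point mutant. According to the study's methods the libraries of a line came from separately derived clones, except for MBD2t, whose libraries all came from the same clone and show technical spread. The constructs are driven by a strong promoter and not by the Mbd3 locus.

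Library totals ranged from 27993858 to 49392806 assigned reads, with a median of 36797095. Levels are given as CPM, the counts scaled to a common total, on library sizes scaled by the trimmed mean of M values, and a count of 3 corresponded to between 0.0607 and 0.115 CPM. A gene was called when its adjusted p in edgeR was under 0.05 and its log2 fold change was beyond 1 in either direction. Within a line, libraries are named the first, the second and the third in the order of the columns, since the columns carry no replicate number. Mbd3 itself was at 155, 149 and 157 CPM in the WT libraries and at 34.2, 73.8 and 69.1 CPM in the Mbd3 KO libraries, and the reads of this table cannot separate endogenous from construct transcripts of Mbd3 or Mbd2. Of 8 neural progenitor markers counted, none was at 0 in any line. Their summed level was 1753 to 1999 CPM in WT but 92.5 to 225 CPM in the Mbd3 KO, 121 to 273 CPM in MBD2a and 174 to 212 CPM in MBD2t, so the labelled cell type was only weakly marked in these 3 lines. In bulk libraries, fewer cells of a type and less RNA per cell cannot be told apart.

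Dppa2 and Dppa4 lie next to each other on mouse chromosome 16, in the same orientation, at chr16:48310590-48319836 and chr16:48283848-48294405 on the plus strand of mm9. Dppa3 lies at chr6:122576428-122580290 on the plus strand and Dppa5a at chr9:78214859-78215984 on the minus strand. No other annotated gene overlaps any of the 4. RefSeq lists the pseudogenes Dppa5b and Dppa5c for Dppa5a and Dppa3-ps for Dppa3, so counts of those genes are uncertain to the extent that reads are shared with such copies.

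The 4 genes were present at very different levels. Levels of different genes were compared as RPKM, the CPM divided by the exon length in kilobases. The mean in the Mbd3 KO was 251 ± 158 RPKM (SD, n = 3) for Dppa5a, 17.04 ± 11.4 for Dppa2, 16.2 ± 8.29 for Dppa4 and 2.61 ± 2.01 for Dppa3. In WT the same means were 34.9 ± 50.9, 2.72 ± 3.79, 3.65 ± 3.51 and 1.17 ± 1.69 RPKM. Dppa5a was therefore the most abundant of these 4 genes per length in both lines, and Dppa3 the least abundant of the 4.

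**Figure D1:**
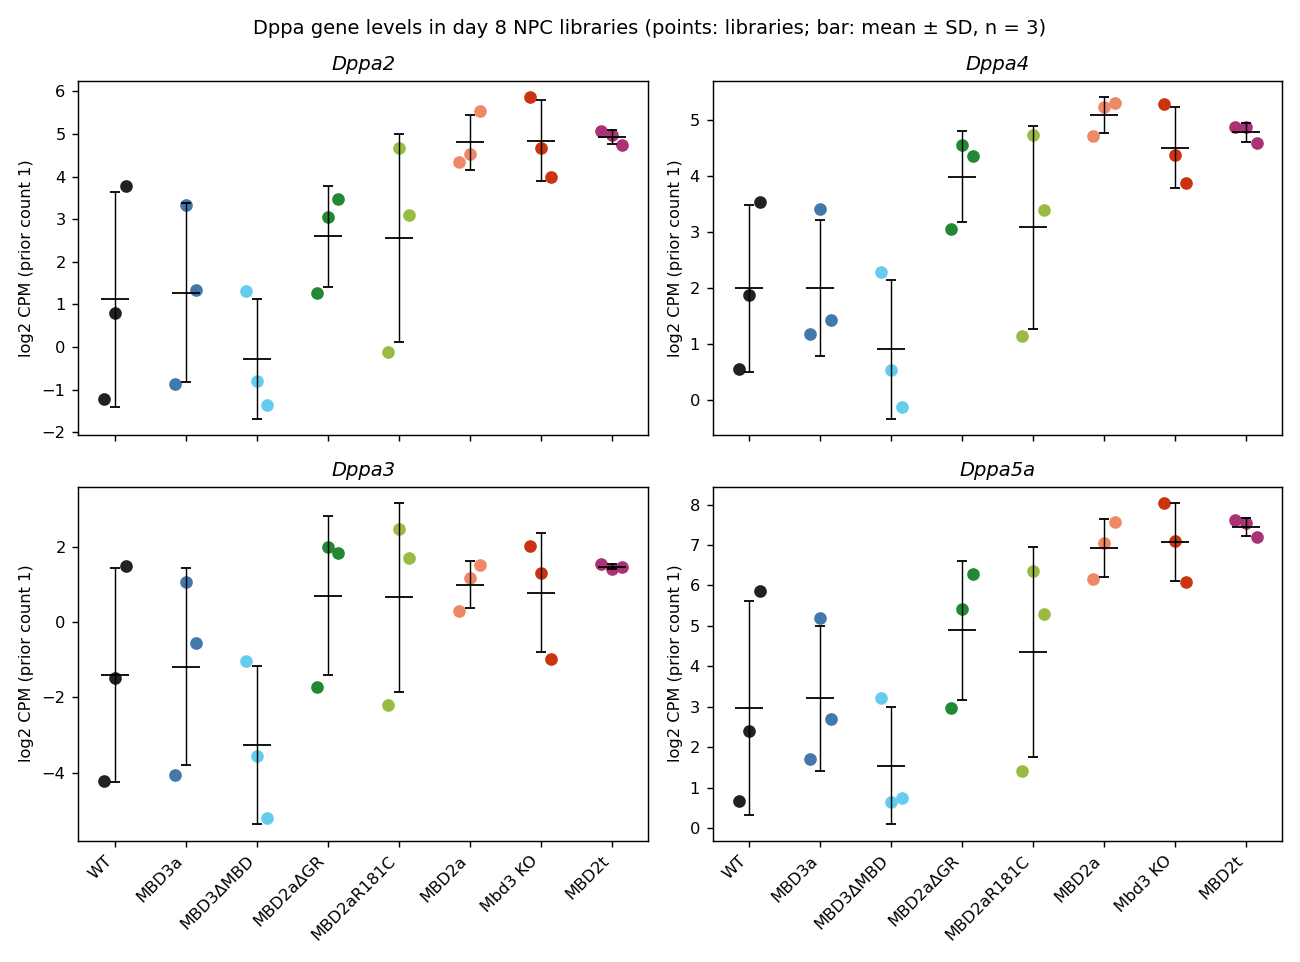
Level of each Dppa gene (log2 CPM, prior count 1, vertical axis) in the 8 lines (horizontal axis), with 1 point per library and a bar for the mean and SD of 3 libraries. Mbd3 KO, MBD2a and MBD2t sit at the top for Dppa2, Dppa4 and Dppa5a, whereas WT, MBD3a, MBD2aΔGR and MBD2aR181C spread widely and MBD3ΔMBD is lowest.

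Loss of MBD3 went with higher levels of Dppa2, Dppa4 and Dppa5a on day 8. Against WT, these 3 of the 4 genes were called higher in the Mbd3 KO, by 4.39-fold to 7.17-fold, in a comparison in which 33.8% of all genes tested were called and 19.6% were called higher. Dppa3 was not called. The median log2 fold change of the 4 genes was 2.38, beside −0.028 over all genes tested.

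Dppa2 was at 0.403, 1.71 and 13.8 CPM in the WT libraries and at 58.3, 25.5 and 15.8 CPM in the Mbd3 KO libraries. The KO libraries all lay above the WT libraries, although the third WT library came close to the lowest KO library. The log2 fold change was 2.62 ± 1.02 (SE, edgeR adjusted p = 0.0327).

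Dppa4, its partner gene, was at 1.45, 3.66 and 11.7 CPM in WT and at 39.1, 20.8 and 14.6 CPM in the Mbd3 KO. Again the groups did not overlap and the third WT library was nearest. The log2 fold change was 2.13 ± 0.77 (SE, edgeR adjusted p = 0.0227).

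Dppa5a, the RNA-binding member, was at 1.56, 5.25 and 57.9 CPM in WT and at 261, 137 and 68.2 CPM in the Mbd3 KO, without overlap. Its log2 fold change was 2.84 ± 1.18 (SE, edgeR adjusted p = 0.0443). The KO libraries all lay above the WT libraries for 3 of the 4 Dppa genes and for 31.1% of all genes tested.

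Dppa3, the germ cell and oocyte factor, was at 0.0268, 0.330 and 2.78 CPM in WT and at 4.06, 2.46 and 0.476 CPM in the Mbd3 KO. The groups overlapped, since the third WT library was above the second and the third KO libraries. The log2 fold change was 1.09 ± 1.03 (SE, edgeR adjusted p = 0.372).

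The calls against WT rested on single libraries. Without the third WT library all 4 genes were called, with log2 fold changes of 4.97 for Dppa2, 3.28 for Dppa4, 3.68 for Dppa3 and 5.51 for Dppa5a. Without the first WT, the second WT or the first KO library 0 of the 4 were called, at log2 fold changes of 1.94 to 2.21 for Dppa2, 1.65 to 1.91 for Dppa4 and 2.24 to 2.38 for Dppa5a. Without the second KO library 2 were called, and without the third KO library 3. With only these 2 lines in the fit, or with the legacy form of the edgeR test, 1 of the 4 was called, Dppa4.

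The third WT library stood apart from the other WT libraries in more than the Dppa genes. Its summed level of 8 neuron markers was 1295 CPM against 3146 and 2715 CPM, while its summed level of 8 neural progenitor markers was 1753 CPM against 1999 and 1868 CPM. Its 12 counted 2-cell-like genes summed to 242 CPM against 8.43 and 25.4 CPM. The part of these differences in the Dppa levels was not tested.

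The constructs were then compared with both reference lines. Whether a construct returns the Dppa genes to the WT range in the absence of endogenous MBD3 is the question the design puts to each.

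With full-length MBD3a, Dppa2 was at 0.522, 10.1 and 2.50 CPM, Dppa4 at 2.25, 10.6 and 2.67 CPM, and Dppa5a at 3.26, 36.5 and 6.53 CPM. All of these libraries lay below the lowest KO library, as was so for 32.4% of all genes tested. Against the Mbd3 KO, Dppa2 was lower by 7.63-fold (log2 fold change −2.93 ± 1.06 SE, edgeR adjusted p = 0.0235), Dppa4 by 4.80-fold (−2.26 ± 0.79, edgeR adjusted p = 0.0199) and Dppa5a by 10.1-fold (−3.33 ± 1.22, edgeR adjusted p = 0.0249). Thus 3 of the 4 genes were called lower, where 18.9% of all genes tested were.

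Dppa3 was at 0.0326, 2.05 and 0.660 CPM in MBD3a and was not called against the KO (log2 fold change −1.35 ± 1.12 SE, edgeR adjusted p = 0.311). Its KO and MBD3a libraries overlapped. Without the first KO library, the first MBD3a library or the third MBD3a library, 0 of the 4 genes were called in this comparison, and without any of the other 3 libraries the count was 3. Against WT, 0 of the 4 genes were called in MBD3a, as was 0.00% of all genes tested (0 genes by edgeR, beside 293 with an unadjusted p under 0.05).

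MBD3ΔMBD gave the lowest mean of each of the 4 genes. Dppa2 was at 2.45, 0.546 and 0.365 CPM, Dppa4 at 4.85, 1.44 and 0.9003 CPM, and Dppa5a at 9.21, 1.55 and 1.66 CPM. Dppa3 was at 0.459 and 0.0575 CPM in the first and second libraries and had no read in the third. All libraries were below the lowest KO library for all 4 genes, as was so for 33.7% of all genes tested.

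Against the Mbd3 KO all 4 genes were called lower in MBD3ΔMBD, where 20.9% of all genes tested were. The log2 fold changes were −5.03 ± 1.25 for Dppa2 (SE, edgeR adjusted p = 0.00183), −3.46 ± 0.86 for Dppa4 (edgeR adjusted p = 0.00184), −4.02 ± 1.56 for Dppa3 (edgeR adjusted p = 0.0310) and −5.31 ± 1.37 for Dppa5a (edgeR adjusted p = 0.00245). These calls held for Dppa2, Dppa4 and Dppa5a with each library left out in turn, but Dppa3 lost its call without the first KO, the second KO, the second MBD3ΔMBD or the third MBD3ΔMBD library, leaving 3 genes called. Against WT the log2 fold changes were −1.33 to −2.93 and 0 of the 4 genes were called, as was 0.0181% of all genes tested. The WT and MBD3ΔMBD libraries overlapped for all 4. Total Mbd3 reads were 423 to 496 CPM in MBD3ΔMBD but 168 to 198 CPM in MBD3a. The part of this difference in the Dppa levels was not tested.

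**Figure D2:**
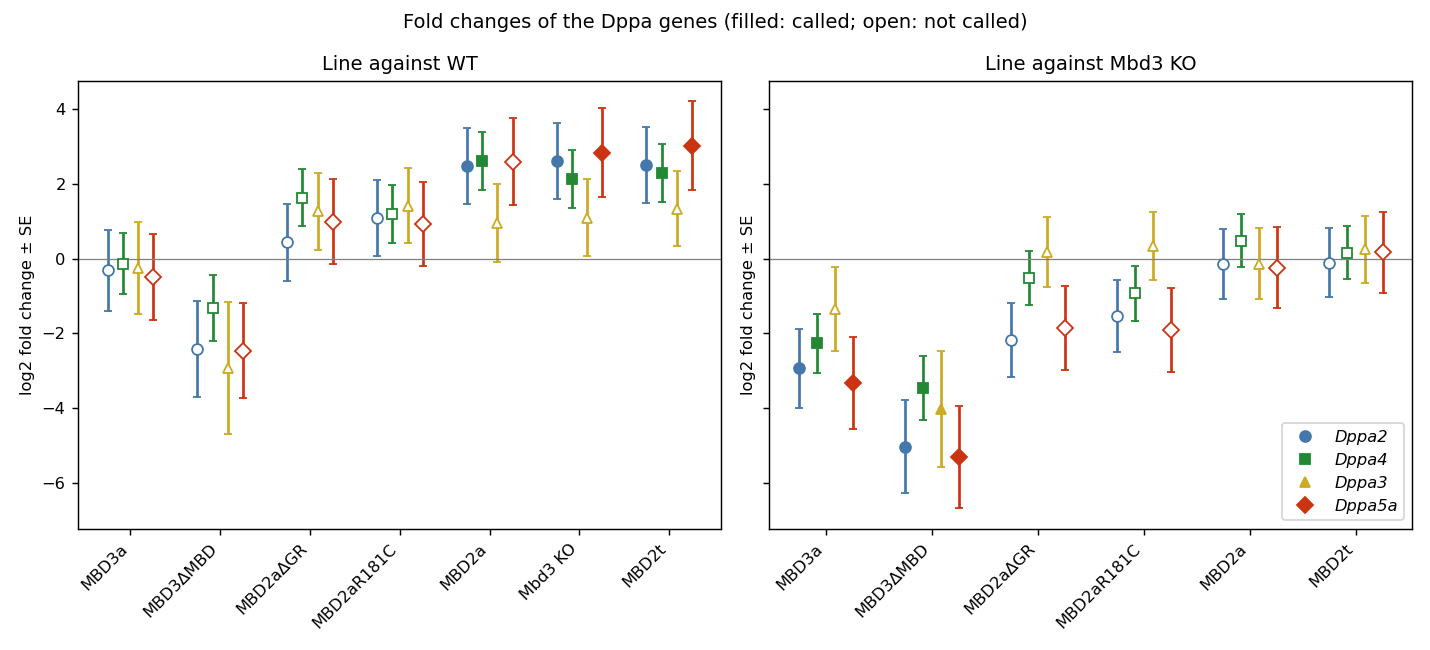
Log2 fold change with its SE (vertical axis) of each Dppa gene in each construct line and the Mbd3 KO against WT (left) and in each construct line against the Mbd3 KO (right), with filled symbols for called genes. Calls against WT are seen in MBD2a, Mbd3 KO and MBD2t, and calls against the KO in MBD3a and MBD3ΔMBD.

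With full-length MBD2a the Dppa levels stayed in the range of the Mbd3 KO. Dppa2 was at 20.1, 22.9 and 46.8 CPM, Dppa4 at 26.4, 37.7 and 39.8 CPM, Dppa3 at 1.21, 2.21 and 2.85 CPM, and Dppa5a at 71.1, 133 and 190 CPM. For all 4 genes these libraries overlapped those of the KO.

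Against the KO, 0 of the 4 genes were called, where 5.25% of all genes tested were, and the log2 fold changes lay between −0.24 (Dppa5a, SE 1.09) and 0.48 (Dppa4, SE 0.713). Against WT, Dppa4 was higher by 6.13-fold (log2 fold change 2.62 ± 0.78 SE, edgeR adjusted p = 0.00806) and Dppa2 by 5.57-fold (2.48 ± 1.02, edgeR adjusted p = 0.0451). Dppa5a was not called (2.60 ± 1.17, edgeR adjusted p = 0.0665), and Dppa3 overlapped WT (0.96 ± 1.05, edgeR adjusted p = 0.453).

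Thus 2 of the 4 genes were called higher than in WT in MBD2a, where 16.9% of all genes tested were. All MBD2a libraries lay above all WT libraries for Dppa2, Dppa4 and Dppa5a, 3 of 4 where 27.8% of all genes tested did so. Dppa4 was called with each library left out in turn. Dppa2 was no longer called without the first WT, the second WT, the second MBD2a or the third MBD2a library, leaving 1 gene, and without the third WT library 3 genes were called, with Dppa5a at a log2 fold change of 5.27.

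In MBD2t the 3 repeats of the clone were close to each other. Dppa2 was at 33.6, 31.4 and 26.8 CPM, Dppa4 at 29.5, 29.6 and 24.1 CPM, Dppa3 at 2.87, 2.62 and 2.75 CPM, and Dppa5a at 195, 186 and 146 CPM. Apart from Dppa3, which overlapped the third WT library, these values were above every WT library, 3 of 4 genes where 34.6% of all genes tested were.

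Against WT, Dppa2 (log2 fold change 2.51 ± 1.01 SE, edgeR adjusted p = 0.0398), Dppa4 (2.29 ± 0.77, edgeR adjusted p = 0.0153) and Dppa5a (3.02 ± 1.19, edgeR adjusted p = 0.0351) were called higher, 3 of 4 where 18.2% of all genes tested were. Dppa3 was not called (1.34 ± 1.00, edgeR adjusted p = 0.256). The count was 0 without the first or the second WT library, 4 without the third WT library, 1 without the first or the second MBD2t library and 2 without the third. Because the repeats share a clone, these p-values do not cover the spread between clones of this line. Against the KO 0 of the 4 were called, as was 0.0241% of all genes tested.

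The 2 altered forms of MBD2a gave variable levels, with means between WT and the KO for Dppa2, Dppa4 and Dppa5a. Their Dppa3 means were above that of the KO, with overlapping libraries. In MBD2aΔGR, Dppa2 was at 2.37, 8.31 and 11.1 CPM, Dppa4 at 8.36, 23.4 and 20.6 CPM, and Dppa5a at 7.80, 42.8 and 78.0 CPM. Dppa3 was at 0.276, 3.99 and 3.52 CPM. The first library was the lowest for every gene, and only Dppa2 was below every KO library, 1 of 4 genes where 22.7% of all genes tested were.

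Neither reference comparison gave a call for MBD2aΔGR. Against the KO the log2 fold changes were −2.18 ± 1.00 for Dppa2 (SE, edgeR adjusted p = 0.0803), −1.86 ± 1.13 for Dppa5a (edgeR adjusted p = 0.188), −0.51 ± 0.72 for Dppa4 (edgeR adjusted p = 0.590) and 0.18 ± 0.93 for Dppa3 (edgeR adjusted p = 0.892), where 25.2% of all genes tested were called. Against WT they were between 0.44 and 1.63, with 5.16% of all genes tested called. The third library of this line also had 7421 CPM over 10 primitive and visceral endoderm markers, against 493 and 598 CPM in the first and second.

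In MBD2aR181C the 3 clones were far apart. Dppa2 was at 0.892, 25.4 and 8.55 CPM, Dppa4 at 2.19, 26.5 and 10.6 CPM, Dppa3 at 0.191, 5.55 and 3.23 CPM, and Dppa5a at 2.66, 82.3 and 39.2 CPM. The second library reached or passed the lowest KO library for all 4 genes and held the highest Dppa3 level of all 24 libraries, while the first resembled the low WT libraries.

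No Dppa gene was called in MBD2aR181C, either against WT (log2 fold changes 0.93 to 1.42), where 0.0181% of all genes tested were called, or against the KO (−1.91 to 0.33), where 31.1% were. Without the second MBD2aR181C library 2 genes were called lower than in the KO, Dppa2 at −2.88 and Dppa4 at −2.01. This was the library with the lowest neuron marker sum of its line, 1575 CPM against 3237 and 2352 CPM, and with the highest sum of 2-cell-like genes, 411 CPM against 25.7 and 193 CPM. Their part in its Dppa levels was not tested.

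The forms of MBD2 were also compared directly. Full-length MBD2a lay above MBD2aΔGR without overlap for Dppa2 and Dppa4, 2 of 4 genes where 19% of all genes tested did so, but 0 of the 4 were called, where 18.6% were. The log2 fold changes of MBD2a over MBD2aΔGR were 2.04 ± 1.00 for Dppa2 (SE, edgeR adjusted p = 0.120), 0.99 ± 0.72 for Dppa4 (edgeR adjusted p = 0.305), 1.61 ± 1.13 for Dppa5a (edgeR adjusted p = 0.281) and −0.31 ± 0.95 for Dppa3 (edgeR adjusted p = 0.828).

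Against MBD2aR181C, MBD2a was at 2.61-fold for Dppa2, 2.67-fold for Dppa4, 3.18-fold for Dppa5a and 0.724-fold for Dppa3, with log2 SEs of 0.73 to 1.13 and 0 of 4 called where 27.3% of all genes tested were. Without the second MBD2aR181C library 1 gene was called, Dppa4 at 2.49. MBD2t and MBD2a differed by −0.32 to 0.42 in log2 fold change, with 0 of 4 called where 4.00% of all genes tested were. Total Mbd2 reads were 67.0 to 87.2 CPM in MBD2a but 280 to 700 CPM in MBD2aΔGR, 253 to 326 CPM in MBD2aR181C and 335 to 356 CPM in MBD2t. The lines thus also differed in the amount of Mbd2 transcript counted. In the Mbd3 KO, which carries no Mbd2 construct, Mbd2 was at 64.25 to 70.88 CPM. Mbd2 was not called in MBD2a against the KO, and the libraries overlapped (log2 fold change 0.26 ± 0.21 SE, edgeR adjusted p = 0.508). By Western blot in ESCs, the study reported equal protein levels of MBD2a and MBD2aΔGR. That is another stage and another measure than the day 8 reads counted here. The part of the Mbd2 transcript level in the Dppa levels was not tested.

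The order of the lines by mean CPM was nearly the same for 3 of the genes. The Mbd3 KO, MBD2a and MBD2t took the top 3 places for Dppa2, Dppa4 and Dppa5a, and WT, MBD3a and MBD3ΔMBD the last 3 for all 4 genes. Dppa3 had another order at the top, where MBD2aR181C (2.99 ± 2.69 CPM, SD, n = 3), MBD2t (2.75 ± 0.12) and MBD2aΔGR (2.60 ± 2.02) came before the KO (2.33 ± 1.79) and MBD2a (2.09 ± 0.83). These neighbouring lines overlapped, and none of the Dppa3 differences tested among them was called. In the comparisons without a call, an unadjusted p under 0.05 was reached by Dppa4 in MBD2aΔGR against WT (edgeR unadjusted p = 0.0477) and by Dppa2 in MBD2aΔGR against the KO (edgeR unadjusted p = 0.0415).

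Across the 15 libraries of WT, MBD3a, MBD3ΔMBD, MBD2aΔGR and MBD2aR181C, the number at or above the lowest KO library was 1 for Dppa2, 3 for Dppa4, 2 for Dppa5a and 7 for Dppa3. The median of these 15 libraries was 2.45 CPM for Dppa2, 4.85 for Dppa4, 0.459 for Dppa3 and 7.80 for Dppa5a. The other 9 libraries had medians of 26.8, 29.5, 2.62 and 146 CPM.

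The spread between clones of a line was larger for the Dppa genes than for most genes. In WT the SD of log2 CPM was 2.52 for Dppa2, 1.497 for Dppa4, 2.85 for Dppa3 and 2.64 for Dppa5a, above that of 99.8%, 97.7%, 99.96% and 99.9% of the genes tested, whose median was 0.29. The highest WT library exceeded the lowest by 34.3 times for Dppa2, 8.06 times for Dppa4 and 37.2 times for Dppa5a. In the Mbd3 KO these ratios were 3.68, 2.67 and 3.83. The share of tested genes with a smaller SD was 89.15% (Dppa4) to 98.2% (Dppa3) in the Mbd3 KO. In MBD2a it was 63.1% (Dppa4) to 85.9% (Dppa5a).

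The genes varied together between libraries of a line, the MBD2t repeats of the same clone included. In WT, Mbd3 KO, MBD3a, MBD2a and MBD2aR181C the libraries had the same order for all 4 genes. After the mean of its line was taken from each library, the Pearson correlation over 24 libraries was 0.976 between Dppa2 and Dppa5a, 0.963 between Dppa2 and Dppa4, 0.962 between Dppa2 and Dppa3, and 0.930 between Dppa4 and Dppa3. These values are descriptive, because the 4 genes share each library and its scaling.

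**Figure D3:**
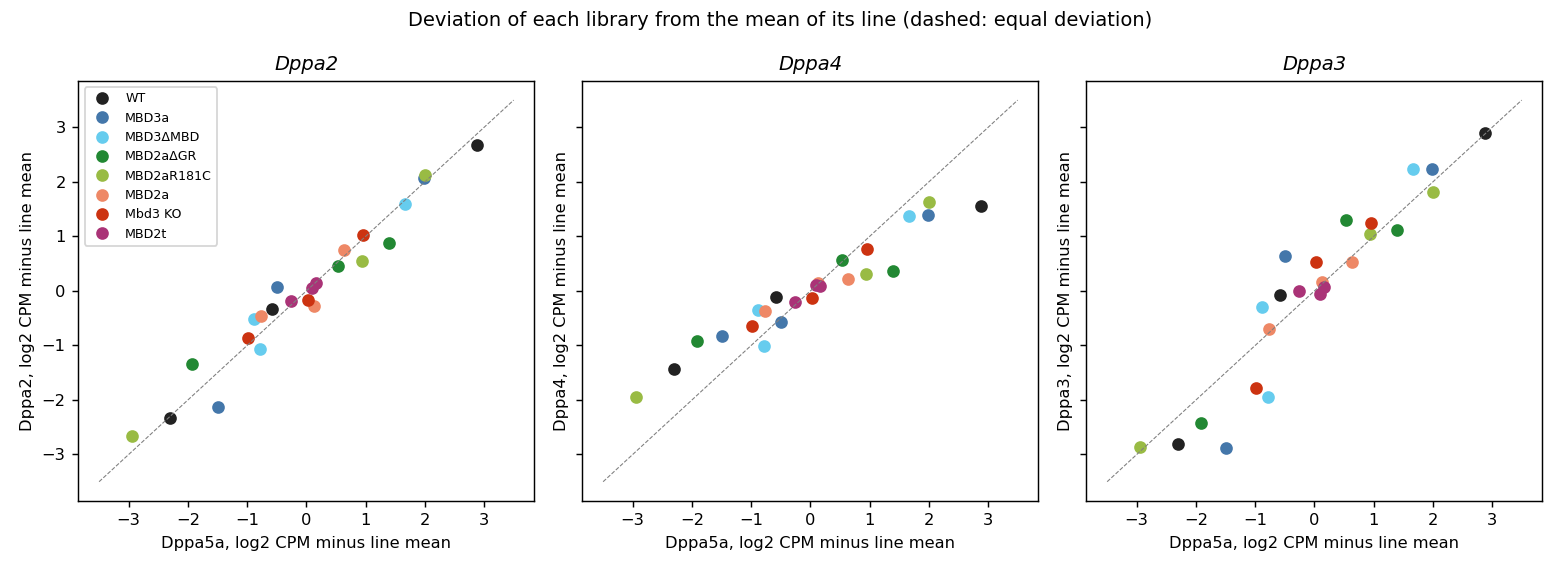
Deviation of each library from the mean log2 CPM of its line for Dppa2, Dppa4 and Dppa3 (vertical axes) against that of Dppa5a (horizontal axis), with 1 point per library coloured by line and a dashed line of equal deviation. The points follow the dashed line for Dppa2, whereas those of Dppa4 spread less than Dppa5a.

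The 4 genes did not change in fixed proportion. Dppa2 reads per Dppa4 read were 0.278, 0.466 and 1.18 in WT and 1.08 to 1.49 in the Mbd3 KO. Dppa5a reads per Dppa4 read were 1.07, 1.44 and 4.96 in WT and 4.66 to 6.69 in the KO. In both cases the ratio was highest in the third WT library among WT, the library with the highest Dppa levels of that line.

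MBD2t had ratios like the KO, at 1.06 to 1.14 Dppa2 reads and 6.06 to 6.61 Dppa5a reads per Dppa4 read. In MBD2a these ratios were 0.607 to 1.18 and 2.69 to 4.77, with medians of 0.762 and 3.52, below the KO ranges. In MBD2aΔGR they were 0.283 to 0.542 and 0.934 to 3.80, and Dppa4 was thus nearer the KO in this line than Dppa2 or Dppa5a were, at a mean of 70.3% of the KO level against 21.9% and 27.6%. These differences in proportion were not tested.

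Each tested gene was ranked by the likeness of its levels to those of each Dppa gene over the 24 libraries. By Pearson correlation of log2 CPM, Dppa2 was closest to Nanog, the homeobox factor of the naive state (r = 0.994), then to Dppa5a and Calcoco2 (0.990 each), Fbxo15 (0.985) and Klf2 (0.983). Dppa5a was closest to Nanog (0.992), Dppa2 (0.990), Zfp42, known as Rex1 (0.989), Gm12463 and Klf2 (0.988 each).

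Dppa4 was closest to Lncenc1 (0.993), the growth factor gene Gdf3 (0.988), Zfp987 (0.986), the germ line tudor gene Rnf17 (0.984) and the germ cell helicase gene Ddx4 (0.983). Dppa3 was closest to the sperm gene Spesp1 (0.944), Fbxo15 (0.938) and the 2-cell-like genes Zscan4f, Zscan4c and Zscan4d (0.937 each), which are near-identical copies that can share reads. The number of tested genes above 0.9 was 475 for Dppa2, 479 for Dppa4 and 648 for Dppa5a but 27 for Dppa3, the gene with the lowest counts.

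Genes beside the Dppa loci were read for the same comparison of the Mbd3 KO with WT. Dppa4 and Dppa2 are 16.2 kb apart. On the far side of Dppa2, Morc1, a germ line gene, starts 112 kb away and rose from 0.599 ± 0.718 to 8.26 ± 3.76 CPM (SD, n = 3, log2 fold change 3.73, edgeR adjusted p = 0.000210). On the far side of Dppa4, Nectin3 at 1790 kb fell by 1.30 on the log2 scale (edgeR adjusted p = 1.8e-05). Plcxd2, at 2270 kb on that side, fell from 29.8 ± 13.3 to 8.61 ± 1.71 CPM (SD, n = 3, log2 fold change −1.79, edgeR adjusted p = 0.0003). Gm4737 (−0.13) between these and Cip2a (0.16) beyond Morc1 were not called, nor was Dzip3 (−0.74), which passed the adjusted p but not the fold threshold (edgeR adjusted p = 0.000778).

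Around Dppa3, Gdf3 at 16.3 kb rose (log2 fold change 2.35, edgeR adjusted p = 0.0225), as did Nanog at 77.2 kb (3.04, edgeR adjusted p = 0.0288) and Mfap5 at 97.1 kb (3.59, edgeR adjusted p = 1.3e-05). The KO and WT libraries overlapped for Gdf3. Mfap5 was low, at 0.573 ± 0.249 CPM in the KO and 0.0425 ± 0.0265 CPM in WT (SD, n = 3). Apobec1, between Gdf3 and Mfap5 at 24 kb, was at −0.12 and was not called. Gm10420 (−0.13) and Gm10224 (−0.48) lay between Dppa3 and Nanog and were not called either.

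Around Dppa5a, Ooep, another KH-domain gene of the oocyte, lies 7.93 kb away and rose from 1.14 ± 1.65 to 7.31 ± 3.53 CPM (SD, n = 3, log2 fold change 2.62, edgeR adjusted p = 0.0106). The log2 CPM of Ooep had a Pearson correlation of 0.99 with that of Dppa5a over the 24 libraries, differences between lines included. Ddx43 at 27.6 kb (2.35) and Gsta4 at 158 kb (1.12) also rose, and Cgas at 62.3 kb (−0.31) was not called. Gm10639 at 61.5 kb (edgeR adjusted p = 0.165) and Gsta1 at 124 kb (edgeR adjusted p = 0.0925) were under 1 CPM in both lines and not called. Each library was also compared with the mean of the other libraries of its line, for genes with a mean log2 CPM above 1. The median log2 deviation on chromosomes 6, 9 and 16, less that over all chromosomes, was −0.062 to 0.042 in the 24 libraries. A difference shared by all libraries of a line cannot be seen in this way.

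**Figure D4:**
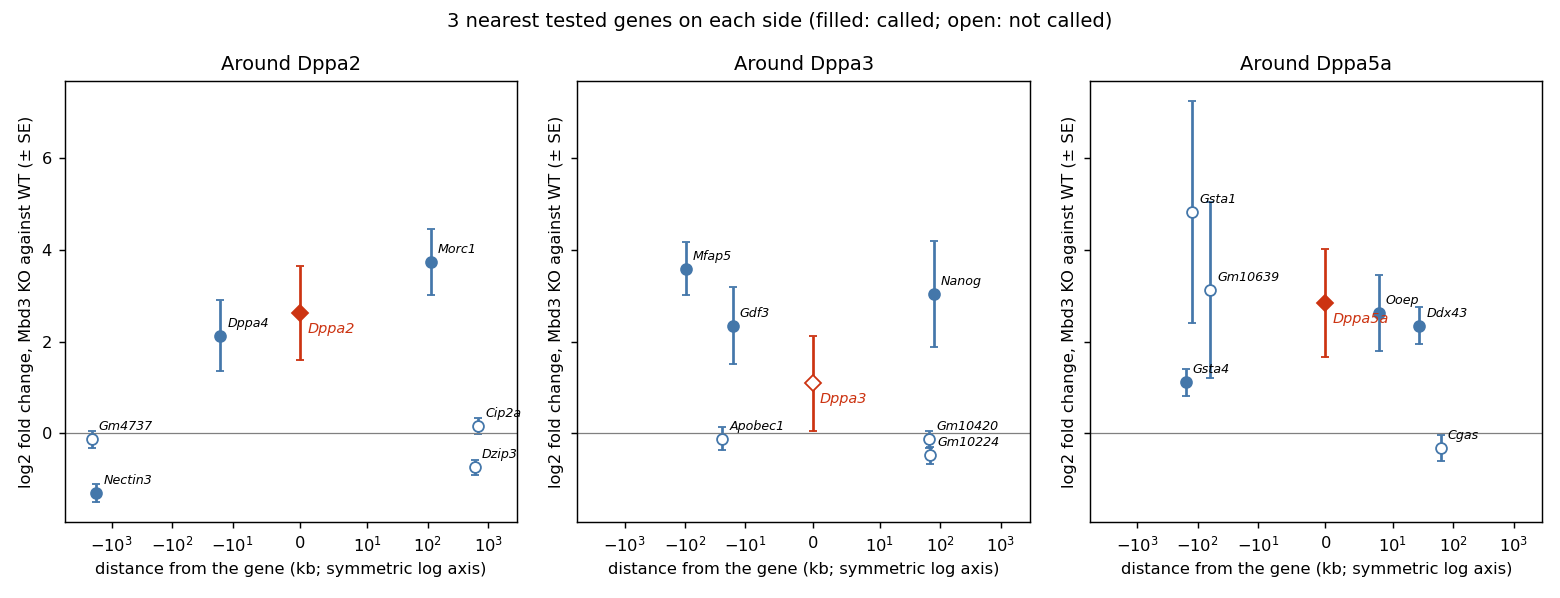
Log2 fold change of the Mbd3 KO against WT with its SE (vertical axis) for Dppa2, Dppa3 and Dppa5a (diamonds) and the 3 nearest tested genes on each side (circles) by distance in kb (symmetric log axis; lower coordinates to the left). Filled symbols are called genes, among them Dppa4 and Morc1 beside Dppa2, Gdf3 and Nanog beside Dppa3, and Ooep and Ddx43 beside Dppa5a.

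Other genes of the same biology were counted by list in the Mbd3 KO against WT, a comparison in which 19.6% of all genes tested were called higher and 14.2% lower. Of 20 genes of the pluripotency network, 18 were called higher and 1 lower, with a median log2 fold change of 2.64. The largest were Tdgf1 (4.53, edgeR adjusted p = 1.59e-05) and L1td1 (3.79, edgeR adjusted p = 0.00216), and Pou5f1, encoding OCT4, was at 2.67 (edgeR adjusted p = 0.00645). The member called lower was Sox2, which neural progenitors also express (−1.03, edgeR adjusted p = 0.00698). The study had chosen several of these genes, and Dppa2, Dppa4 and Dppa5a, for display from the same samples, so they are not independent evidence of direction.

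Genes that depend on the Dppa2 and Dppa4 pair in ESCs were not all called in the Mbd3 KO against WT. Of 3 counted, 1 was called higher, beside 19.6% of all genes tested. The meiotic gene Syce1 rose (log2 fold change 1.98, edgeR adjusted p = 0.0152), while Mael (1.15, edgeR adjusted p = 0.128) and Nkx2-5 (−0.65, edgeR adjusted p = 0.195) were not called. Nkx2-5 was low, at 0.527 ± 0.110 CPM in the KO and 0.829 ± 0.190 CPM in WT (SD, n = 3). Of 10 tested 2-cell-like genes, 0 were called by edgeR in either direction, 0 had an unadjusted p under 0.05, and the median log2 fold change was −0.16. Among them Zscan4c was at 32.9 ± 17.9 CPM in the KO and 33.8 ± 48.1 CPM in WT (SD, n = 3), so the WT spread exceeded the difference. In MBD2a against WT 2 of the 3 dependent genes were called higher and 0 of the 10 2-cell-like genes, where 16.9% of all genes tested were.

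The 2-cell-like genes did follow the Dppa genes between libraries of a line, the MBD2t repeats of the same clone included. The mean log2 CPM of the tested genes of this list was taken for each library, as a deviation from its line mean. These deviations had correlations of 0.90 (Dppa3) to 0.97 (Dppa2) with those of the Dppa genes over 24 libraries. For the pluripotency list the values were 0.91 (Dppa3) to 0.97 (Dppa5a), and for the germ cell and KH-domain lists 0.90 to 0.97. For the genes that depend on the Dppa2 and Dppa4 pair they were 0.79 (Dppa3) to 0.86 (Dppa4). Among markers of other cells they were 0.60 to 0.72 for trophoblast markers, 0.24 to 0.36 for endoderm markers, −0.17 to 0.02 for postimplantation epiblast markers, −0.26 to −0.37 for mesoderm markers, −0.65 to −0.73 for neuron markers, −0.36 to −0.45 for neural progenitor markers and −0.79 to −0.85 for fibroblast markers. The part of these other cell markers in the Dppa levels was not tested.

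Of 8 enzymes and partners of DNA methylation, among them Uhrf1, 2 were called higher in the KO, a share near the 19.6% of all genes tested. The median of the list was −0.04 beside −0.028 over all genes. The 2 called genes were Dnmt3l (log2 fold change 4.73, edgeR adjusted p = 0.000448) and Dnmt3b (1.39, edgeR adjusted p = 0.000125). Uhrf1, the binding partner of Dppa3, was at 182 ± 35.9 CPM in the KO and 175 ± 18.2 CPM in WT (SD, n = 3) and was not called, with a log2 fold change of 0.06 (edgeR adjusted p = 0.781). Tet3 (−0.90) and Dnmt3a (−0.37) were the lowest of the list and were not called.

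Among 12 genes of primordial germ cells, in which Dppa3 is a marker, 9 were called higher and 0 lower, beside 19.6% and 14.2% of all genes tested, with a median of 1.61. Tfap2c (3.78, edgeR adjusted p = 0.000135) and Prdm14 (3.33, edgeR adjusted p = 0.00133) were highest, and Tdrd7 (0.70) and Nanos3 (−0.12) were lowest and not called. Of 6 tested KH-domain and partner genes of oocyte and embryo, the company of Dppa5a, 4 were called higher and 0 lower, beside the same shares of all genes tested. Khdc3 had the largest log2 fold change (6.97, edgeR adjusted p = 2.47e-08), followed by Ooep (2.62), whereas Khdc1a (0.67) and Khdc1c (0.14) were not called.

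Markers of other cells moved between the same lines. All 8 neural progenitor and all 8 neuron markers were called lower in the KO, with medians of −4.79 and −4.26, where 14.2% of all genes tested were called lower and 19.6% higher. Of 10 trophoblast markers, 9 were called higher, with a median of 3.97, and their sum was 641 to 847 CPM in the KO against 20.3 to 53.3 CPM in WT. Tfap2c is in the trophoblast and germ cell lists, and Prdm14 in the germ cell and pluripotency lists. Of 7 postimplantation epiblast markers, 3 were called higher and 2 lower, of 10 endoderm markers 1 higher and 0 lower, of 7 tested mesoderm markers 2 higher and 1 lower, and of 8 fibroblast markers 0 higher and 4 lower. The part of these cell types in the Dppa levels was not tested.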

How the data were processed

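RNA-seq counts per gene of 24 libraries were analysed, and the chromatin immunoprecipitation samples were not analysed here. Per the labels and the study's methods, the authors trimmed reads with Trim Galore, aligned them to mm9 with STAR and counted reads per gene with QuasR, and the deposited values are raw counts without normalization. The strand setting of the counting is not given in the sources used here.

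Counts were scaled by the trimmed mean of M values, filtered with filterByExpr by line (16582 of 25400 genes kept) and fitted with all 24 libraries in 1 model with line as the only factor. Tests were made by quasi-likelihood in edgeR 4.0.16 (R 4.3.3, non-legacy form), with Benjamini-Hochberg adjustment over all genes tested, in 16 comparisons. SEs were derived from the log2 fold change and its F statistic. Log2 CPM used a prior count of 1. RPKM and positions used the GENCODE annotation of mm9. The procedure was tested on simulated data with a capped spread between libraries. That test did not cover a spread as wide as that of the Dppa genes in WT. Alternatives were other scalings, no filter, no fold threshold, fewer lines in the fit, each library left out, DESeq2 1.42.0 and, added after the data were seen, the legacy edgeR test.

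Named genes were the Dppa genes, the 3 nearest tested genes on each side, the 5 most correlated genes, the 2 highest and 2 lowest of each list, Pou5f1, Nanog, Zfp42, Sox2, Mbd3 and Mbd2. Uhrf1 was added outside that rule, as the binding partner of Dppa3, after its values were seen. The members and gene lists were chosen with earlier results of these data known. Replicates were compared pairwise, and none agreed within counting noise. The depth values given cover counting error only.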

Additional observations from a re-analysis of the deposited data

How the results depend on the processing

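Of 884 log2 fold changes of the Dppa genes recomputed under alternatives, 791 kept their direction and their side of the threshold, 50 lost the call, 7 gained it and 36 changed sign, all of the latter with 1 library left out. With only the 2 compared lines in the fit, 1 gene was called in the Mbd3 KO, 1 in MBD2a and 1 in MBD2t against WT. With all lines but MBD2t, without the filter on low counts, or with the legacy test, 1 gene was called in MBD2a against WT, and the legacy test also left 1 in the Mbd3 KO. The cause was not tested. Upper quartile scaling put mean Dppa3 in MBD2t at 2.902 CPM. DESeq2 added Dppa5a in MBD2a against WT (log2 fold change 2.65; DESeq2 adjusted p = 0.0410) and gave the same counts in all other comparisons. No paired analysis was possible because the columns carry no replicate numbers. With each library left out, the number of Dppa genes called ranged from 0 to 4 in the Mbd3 KO, 1 to 3 in MBD2a and 0 to 4 in MBD2t against WT, 0 to 3 in MBD3a, 3 to 4 in MBD3ΔMBD and 0 to 2 in MBD2aR181C against the KO, 0 to 1 for MBD2a against MBD2aR181C, and was 0 in the other comparisons. Among the log2 fold changes that crossed 0 in this way, none was called. Against WT they ranged in MBD3a from −1.82 to 2.04 (Dppa2), −1.18 to 1.02 (Dppa4), −1.65 to 2.33 (Dppa3) and −2.12 to 2.18 (Dppa5a), in MBD3ΔMBD from −3.75 to 0.20 (Dppa5a), in MBD2aΔGR from −0.14 to 2.80 (Dppa2), and in MBD2aR181C from −0.26 to 3.45 (Dppa2) and −0.10 to 3.60 (Dppa5a). Against the KO they ranged in MBD2a from −0.63 to 0.54 (Dppa2), −0.62 to 0.48 (Dppa3) and −0.62 to 0.36 (Dppa5a), in MBD2aΔGR from −0.34 to 0.79 (Dppa3), in MBD2aR181C from −0.54 to 0.95 (Dppa3), and in MBD2t from −0.45 to 0.57 (Dppa2), −0.11 to 0.64 (Dppa4), −0.23 to 0.86 (Dppa3) and −0.19 to 0.77 (Dppa5a). MBD2a ranged from −0.79 to 0.16 against MBD2aΔGR and from −1.03 to 0.40 against MBD2aR181C (Dppa3), and MBD2t from −0.18 to 0.52 against MBD2a (Dppa2). Dppa3 had under 10 reads in several libraries, which limits its precision most.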
